A study of Mus musculus with 8 samples.

Results

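The insulin signalling and glucose uptake genes of muscle were followed in gastrocnemius of mice with an AMPK knockout (KO) and of wild-type (WT) controls. The set holds 10 genes named by symbol: the insulin receptor gene Insr, Irs1, Pik3r1, Akt2, the Rab GTPase-activating proteins Tbc1d1 and Tbc1d4, Rab10, the transporters Slc2a1 and Slc2a4, and Txnip. All sites carrying these symbols were taken, which gave 93 of the 56483 polyadenylation sites (APSs) of the series, in 9 of the 10 genes. An APS is a position where the 3′ ends of polyadenylated transcripts were found, and its value is the number of reads that ended there. The mice were AMPKα1 KO, which lack part of the Prkaa1 gene, AMPKα2 KO, which lack part of Prkaa2, and a WT group for each model. Each of these 4 groups held 2 mice, with 1 library per mouse and 8 libraries in all. Both deletions were germline deletions in every cell and removed part of the catalytic domain only. Strain was given as C57BL/6 in the sample labels, and the methods of the study named 129S2/SvPas for the AMPKα1 KO mice and C57BL/6 for the AMPKα2 KO mice. The mice were male, and age was stated for KO mice only, as about 6 weeks in the AMPKα1 line and about 8 weeks in the AMPKα2 line.

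Insulin drives glucose into a muscle fibre by a relay. The insulin receptor (Insr) phosphorylates the docking protein IRS1 (Irs1), which recruits PI3-kinase through its regulatory subunit p85α (Pik3r1), and the lipid made by PI3-kinase activates the kinase AKT2 (Akt2). AKT2 phosphorylates TBC1D4 (also called AS160), and AMPK phosphorylates its paralog TBC1D1, and both marks release the brake that these proteins put on Rab GTPases such as RAB10, so that vesicles with the transporter GLUT4 (Slc2a4) fuse with the cell surface. GLUT1 (Slc2a1) gives basal uptake, and TXNIP (Txnip) promotes removal of both transporters from the surface and is marked for degradation when AMPK phosphorylates it. These controls act largely on proteins, and the values here are RNA.

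Libraries held 2311242 to 3549156 reads. Replicates of the AMPKα2 model were closer to each other than those of the AMPKα1 model: the Spearman correlation of gene reads between both mice of a group was 0.695 (KO) and 0.801 (WT) for AMPKα1, and 0.911 (KO) and 0.922 (WT) for AMPKα2. A gene with 50 or more reads in 1 mouse of the AMPKα1 KO pair lacked any read in its partner in 11.9% of cases. The 8 muscle fibre markers examined (such as Acta1, Ckm and the myosin genes) had reads in every library, and their summed level was 49189.8 to 65094 CPM (read counts scaled to library size within each model) in AMPKα1 KO against 74789 to 114775 in WT, and 52212 to 65629 in AMPKα2 KO against 42549.5 to 46866 in WT. Summed adipocyte markers (5 of 6 with an APS, Lep without) ranged from 593 to 2312 CPM in AMPKα1 KO against 566 to 853 in WT, and from 182 to 304 CPM in AMPKα2 KO against 245 to 573 in WT. Of 39 markers in 8 lists (also blood, vessel, leukocyte, fibroblast, smooth muscle and nerve), none passed edgeR's test. An unadjusted edgeR p under 0.05 was reached by 6 of 38 tested in AMPKα1 mice (4.23% of all genes) and by 6 of 37 in AMPKα2 mice (8.44%). DESeq2 passed Myh7 in both models and Mylpf in AMPKα1 mice. Myh7, the slow fibre myosin, had 8421 and 5128 reads in AMPKα1 KO against 1220 and 2273 in WT, and 1607 and 2474 in AMPKα2 KO against 862 and 1136 in WT. Mylpf went the other way in AMPKα1 mice, with 19156 and 18193 reads in KO against 25608 and 35257 in WT. Of the 8 fibre markers, only Myh7 had a positive log2 fold change in AMPKα1 mice, and 7 had a negative one. In AMPKα2 mice all 8 were positive. The part of these markers in the values below was not tested. Prkaa1 had 0 and 82 reads in the AMPKα1 KO mice and 15 and 0 in their WT, and Prkaa2 had 40 and 71 in the AMPKα2 KO mice and 87 and 62 in their WT. A read at the 3′ end of a gene whose deletion is partial does not check the genotype. Between models, genotype, age, possibly strain and library quality cannot be told apart, so KO effects were computed within each model. In whole muscle, fewer cells of a type and less RNA per cell cannot be told apart either.

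Slc2a4 was not analysed here, because no APS used here carried its symbol. The gene lies at chr11:69942539-69948188 (GRCm38, minus strand), and no APS of any gene was used between 69881566 in Acap1 and 70720499 in Kif1c, a stretch of 839 kb with 50 annotated protein-coding genes that include Eno3, the muscle enolase. No statement on the level of Slc2a4 follows from this.

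The sites that carried most reads differed in the sequence around them, and these sequences are shown to place the sites whose values follow. The first lines give the 30 bases that end at the site, with a polyadenylation hexamer (AATAAA or ATTAAA) in capitals, read from GENCODE transcripts of GRCm38.
Txnip, last site, chr3:96561830-96561859, plus strand: gtaaaaaaaAATAAAgttttttaatgacaa
Akt2, main site, chr7:27639426-27639455, plus strand: gcAATAAAgacactcatttcagaccagggc
Akt2, last site, chr7:27640796-27640825, plus strand: gtaatcaaaAATAAAaataaggctccatct
Irs1, last site, chr1:82233106-82233135, minus strand: atcgttaATTAAAgaaaaccatctaaatga
Insr, site at a transcript end, chr8:3150922-3150951, minus strand: taaaatttggAATAAAttatcttgagacta
Tbc1d1, last site, chr5:64351455-64351484, plus strand: aaagagcAATAAAacagattattcacacct
Rab10, last site, chr12:3247429-3247458, minus strand: ctgttcatataaaaacaaacctgatttcca
Rab10, main site, chr12:3247724-3247753, minus strand: tttgttaaatctgcactttctgaatatcaa
Txnip, main coding exon site, chr3:96559137-96559166, plus strand: cgccccagccagccaactcaagaggcaaag
The next lines give the 30 bases downstream of a site, with an A-rich stretch (7 As in a row, or 8 As in 10 bases) in capitals. Such a stretch is where an oligo(dT) primer could also anneal inside a transcript, and whether it did so here was not tested.
Insr, main site, chr8:3152248-3152277, minus strand: AAAGAAAATAGAAACAAAAgcaagttacat
Pik3r1, 3′ UTR site nearest the gene end with over 10% of reads, chr13:101681044-101681073, minus strand: AAAAAAAATCAAAACAAACAAAAAAGccct
Pik3r1, main site, chr13:101683659-101683688, minus strand: AAAAGAAAATgatatatgatatgacaaagt
Tbc1d4, 3′ UTR site of a shorter transcript, chr14:101462946-101462975, minus strand: AGAAAAAAAGAAATcaaaggagctcaagag
Among the 37 sites of these genes whose upstream bases lie in 1 exon, 27.0% had AATAAA and 2.7% had ATTAAA, against 31.3% and 10.4% of 21207 such sites of all genes. An A-rich stretch followed 25.0% of 28 sites of these genes and 24% of 15163 of all genes. The main Pik3r1 site, shown above by its A-rich stretch, also has AATAAA, which starts 12 bases upstream. Both motifs were searched on the strand of the site only, and a match is a description of the letters.

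No gene of the set passed the test of KO against WT in either model. With edgeR's quasi-likelihood test and an adjusted p under 0.1, 0 of the 9 genes passed in AMPKα1 mice, where 0.0% of 13924 genes tested passed, and 0 of 9 passed in AMPKα2 mice, where 0.484% of 10536 passed. At an unadjusted p under 0.05 stood 2 of the 9 genes in AMPKα1 mice (4.23% of all genes) and 3 of the 9 in AMPKα2 mice (8.44%), and DESeq2 passed 0 of 9 in both models. The median fitted log2 fold change of the 9 genes was 0.05 in AMPKα1 mice, beside -0.03 over all genes, and 0.14 in AMPKα2 mice, beside -0.01. The median size of the log2 fold change over all genes, sign ignored, was 0.84 in AMPKα1 and 0.37 in AMPKα2 mice, and the biological coefficient of variation between mice of a group was 104% and 26.2%. The KO and WT ranges did not overlap for 6 of the 9 genes in AMPKα1 mice (32.5% of all genes) and for 5 of the 9 in AMPKα2 mice (39.2%). Slc2a1 is among these 5 and among the 3 AMPKα2 genes with an unadjusted p under 0.05. In AMPKα2 mice 95.3% of its reads lay at an antisense site, so its value there does not measure the messenger RNA. With 2 mice against 2, an exact permutation test of a single gene cannot go below p = 0.333.

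**Figure D1:**
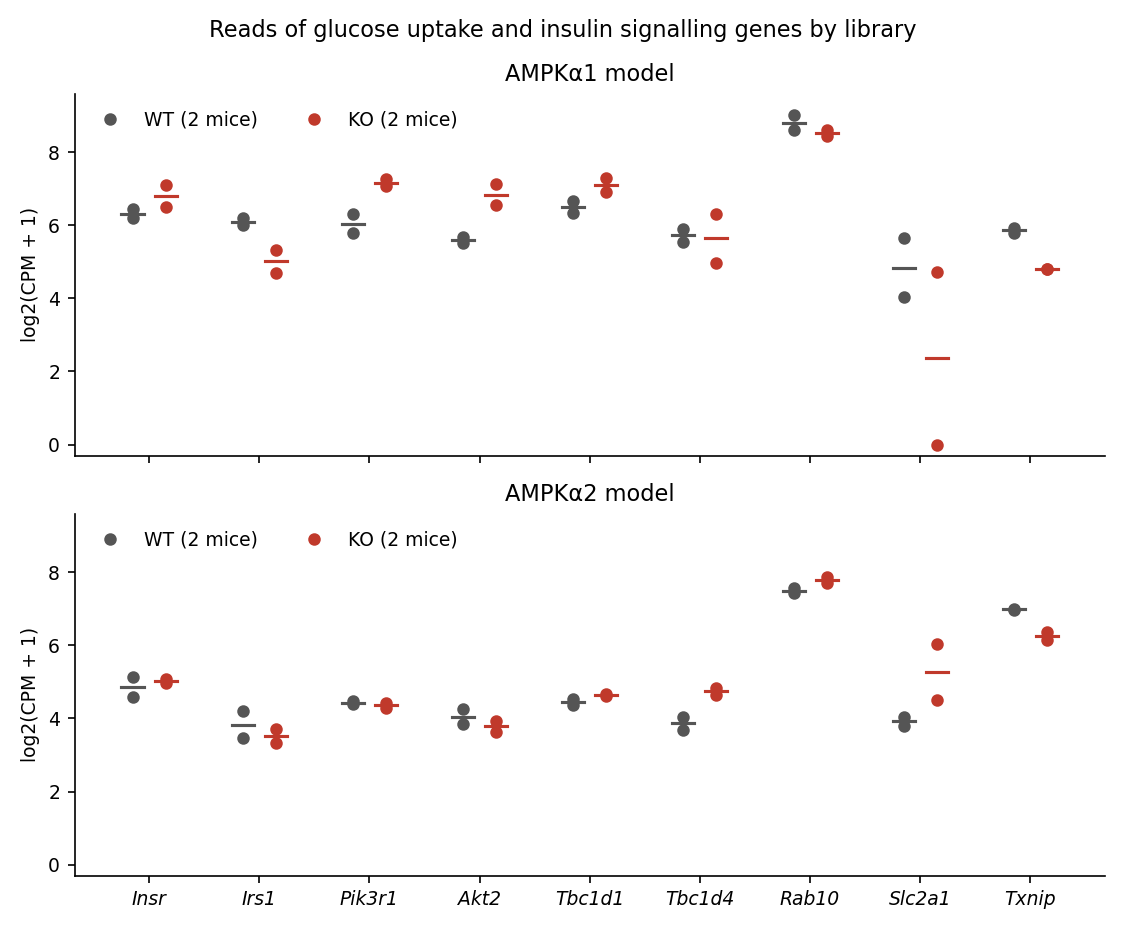
Level of each gene in each library, as log2(CPM + 1) with CPM scaled within each model (dots, 1 mouse each; short lines, mean of 2 mice; grey, WT; red, KO). In the AMPKα1 panel Akt2, Pik3r1, Tbc1d1 and Insr sit higher and Irs1 and Txnip lower in both KO mice than in both WT mice. In the AMPKα2 panel Txnip sits lower and Tbc1d4, Tbc1d1, Rab10 and Slc2a1 higher. None of these passed the adjusted test. The AMPKα2 values of Slc2a1 are mostly antisense reads.

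Insr was read at 88.8 and 136 CPM in the AMPKα1 KO mice and at 85.8 and 71.6 CPM in their WT. In AMPKα2 mice it stood at 32.5 and 30.05 CPM in KO and at 23.2 and 34.1 CPM in WT. The summed value was thus higher in both AMPKα1 KO mice than in either WT mouse and overlapped between genotypes in AMPKα2 mice. The log2 fold changes were 0.52 ± 0.48 (SE) and 0.14 ± 0.30 (edgeR adjusted p = 0.897 and 0.939). The sum includes intron sites, some read in 1 AMPKα1 library only, such as position 3264753 with 40 reads in KO 1. The main site, in the 3′ UTR, held 44.0% of the AMPKα1 reads, with 68 and 255 in KO against 40 and 169 in WT. Its log2 fold change there was 0.25 ± 0.86. Of 12 Insr sites tested in AMPKα1 mice, 9 were positive and 3 negative. The 3′ UTR sites were not summed apart.

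Irs1, the first docking protein of the relay, had 39.3 and 24.9 CPM in the AMPKα1 KO mice against 62.8 and 72.2 CPM in WT. Both KO mice lay below both WT mice, by a log2 fold change of -1.07 ± 0.57 that did not pass the test (edgeR adjusted p = 0.763). In AMPKα2 mice the ranges overlapped, at 12.1 and 9.09 CPM in KO and 17.3 and 9.95 CPM in WT.

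Pik3r1 and Akt2, the next steps, had the lowest unadjusted p of the set in AMPKα1 mice. Pik3r1 had 134 and 152 CPM in KO against 77.6 and 54.2 CPM in WT, a log2 fold change of 1.12 ± 0.46 (edgeR unadjusted p = 0.0482, adjusted p = 0.763). Akt2 had 92.5 and 138 CPM in KO against 44.3 and 50.2 CPM in WT, a log2 fold change of 1.29 ± 0.49 (unadjusted p = 0.0370, adjusted p = 0.763 in the same test). The KO mice of the AMPKα1 model were above the WT mice for both genes, while the AMPKα2 values overlapped. In AMPKα2 mice Pik3r1 had 18.5 and 20.6 CPM in KO against 21.1 and 19.9 CPM in WT, and Akt2 had 11.5 and 14.2 CPM against 18.2 and 13.3 CPM. The difference between the models in the KO effect was -1.20 ± 0.53 on the log2 scale for Pik3r1 and -1.58 ± 0.60 for Akt2 (AMPKα2 minus AMPKα1; edgeR interaction test, unadjusted p = 0.0493 and 0.0255, adjusted p = 0.718 and 0.627). Neither passed, nor did any other of the 9 genes, by edgeR or DESeq2; the edgeR test was passed by 0.0586% of 15349 genes.

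Tbc1d1, the Rab brake that AMPK phosphorylates, had 157 and 120 CPM in the AMPKα1 KO mice against 79.8 and 100.3 CPM in WT, and 23.6 and 24.5 CPM in the AMPKα2 KO mice against 19.7 and 22.3 CPM in WT. In both models the summed value of both KO mice was above both WT mice, with log2 fold changes of 0.62 ± 0.44 and 0.20 ± 0.29 (edgeR adjusted p = 0.771 and 0.897). The last site of Tbc1d1, in the 3′ UTR, did not show this. It held 15.1% of the gene's reads in AMPKα1 mice, with 41 and 97 in KO against 44 and 41 in WT. In AMPKα2 mice it held 39.4%, with 10 and 23 against 31 and 20. Its log2 fold changes were -0.04 ± 1.21 and -0.37 ± 0.47. Most other Tbc1d1 sites lie in introns. Tbc1d4, its paralog downstream of AKT2, had 27.4 and 24.1 CPM in the AMPKα2 KO mice against 15.6 and 11.8 CPM in WT. Its AMPKα2 ranges did not overlap, and the log2 fold change of 0.89 ± 0.32, or 1.85-fold, had an unadjusted p = 0.0173 and an adjusted p = 0.433 in edgeR's test. All 3 Tbc1d4 sites with enough reads in AMPKα2 mice had log2 fold changes above 0, from 0.74 to 0.97. These sites are parts of the same gene sum in the same mice, so their shared sign is no further support. In AMPKα1 mice the Tbc1d4 values spread within the KO pair, at 78.5 and 30.1 CPM, around the 59.0 and 45.8 CPM of the WT pair, and the fitted change of 0.05 turned negative without KO 1 (-0.80).

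Rab10, the vesicle GTPase, was the most highly read gene of the set and gave 34.5% to 50.8% of the set's reads in every library. It had 385 and 344 CPM in the AMPKα1 KO mice against 384 and 512 CPM in WT, which overlap, and 206 and 233 CPM in the AMPKα2 KO mice against 172 and 188 CPM in WT, which do not. The log2 fold changes were -0.30 ± 0.38 and 0.29 ± 0.24 (edgeR adjusted p = 0.983 and 0.783).

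**Figure D2:**
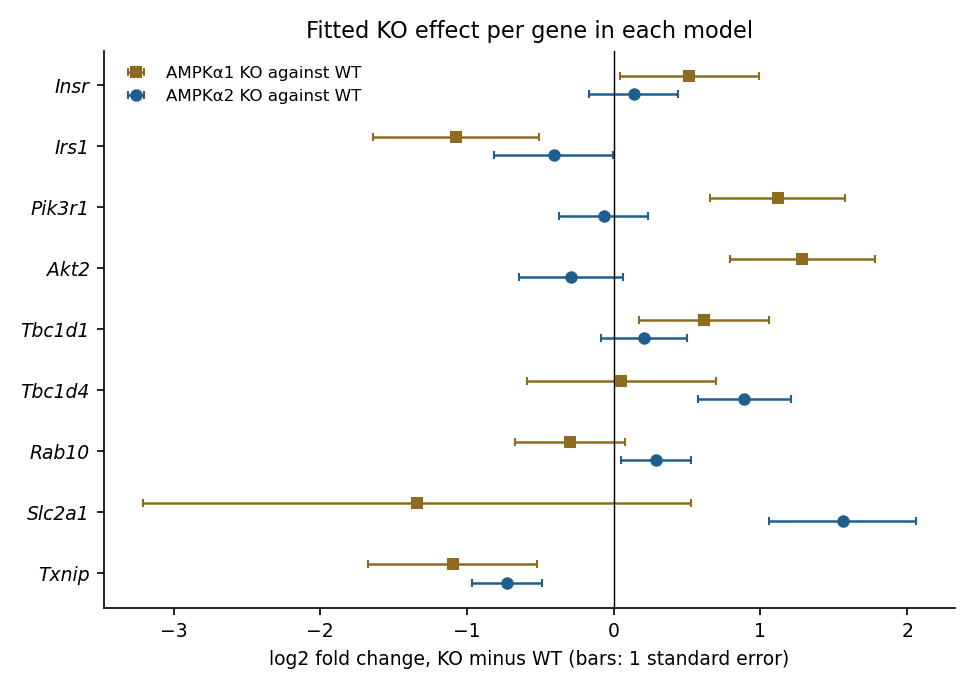
Fitted log2 fold change of KO against WT for each gene (squares, AMPKα1; circles, AMPKα2; bars, 1 standard error, 2 KO and 2 WT mice per model). Txnip and Irs1 lie left of 0 in both models, Tbc1d1, Insr and Tbc1d4 (0.05 in AMPKα1) right of 0 in both, and no gene passed an adjusted p of 0.1. The AMPKα2 value of Slc2a1 comes mostly from antisense reads.

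Txnip, the arrestin-domain inhibitor of glucose uptake, was lower in KO than in WT in all 4 pairings of mice within each model. It had 26.8 and 26.8 CPM in the AMPKα1 KO mice against 54.6 and 60.0 CPM in WT (26.8 ± 0.0282 and 57.3 ± 3.81, mean ± SD, n = 2). In the AMPKα2 KO mice it had 69.4 and 81.5 CPM against 126 and 124 CPM in WT (75.4 ± 8.50 and 125 ± 1.66, n = 2). The groups did not overlap in either model, and the test passed in neither: the log2 fold change was -1.10 ± 0.58 in AMPKα1 mice (edgeR unadjusted p = 0.101, adjusted p = 0.763) and -0.73 ± 0.24 in AMPKα2 mice (unadjusted p = 0.0109, adjusted p = 0.377). Under every alternative setting the sign was kept, from -1.16 to -0.86 in AMPKα1 and from -0.89 to -0.62 in AMPKα2 mice. In AMPKα2 mice all 9 Txnip sites were tested and all 9 had a negative log2 fold change, from -1.05 to -0.03. An unadjusted p under 0.05 in edgeR's site test was reached by 3 of them. The values at positions 96559814 and 96561536 were near 0, at -0.03 ± 0.56 and -0.03 ± 0.58, and their sign can depend on the scaling, which was computed over sites here. The sites are parts of the same gene sum in the same mice, so their shared sign is no further support. The last site of the gene, where AATAAA starts 21 bases upstream, was read 15 and 32 times in the AMPKα2 KO pair against 75 and 41 times in WT. In AMPKα1 mice this site held 81.7% of the Txnip reads, with 94 and 89 in KO against 52 and 172 in WT. Its log2 fold change there was -0.72 ± 0.87 (edgeR unadjusted p = 0.419, adjusted p = 0.861), and -0.31 without WT 2. The 3′ UTR site at position 96561152 held 16.3% of the AMPKα1 reads, with 0 and 8 in KO against 42 and 31 in WT. The lower summed value in AMPKα1 KO mice rests in part on that site, whose log2 fold change was -3.93 ± 2.48 (edgeR unadjusted p = 0.132, adjusted p = 0.543).

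Slc2a1, the basal transporter GLUT1, had 2 sites in the table, and the models read different ones. The sense site in a 3′ UTR (chr4, position 119137331, 652 bases before the gene end and 1 base past an annotated transcript end) was read 0 and 92 times in the AMPKα1 KO pair against 28 and 169 times in WT, and 2 and 1 times in the AMPKα2 KO pair against 5 and 3 times in WT. The other site lies on the opposite strand, in an intron 523 bases from the gene start (position 119109234), and was read 99 and 54 times in the AMPKα2 KO pair, 48 and 24 times in WT and never in the 4 AMPKα1 libraries. The antisense site thus held 95.3% of the reads assigned to Slc2a1 in the AMPKα2 model, and the summed value there is not a measure of the GLUT1 messenger RNA.

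**Figure D3:**
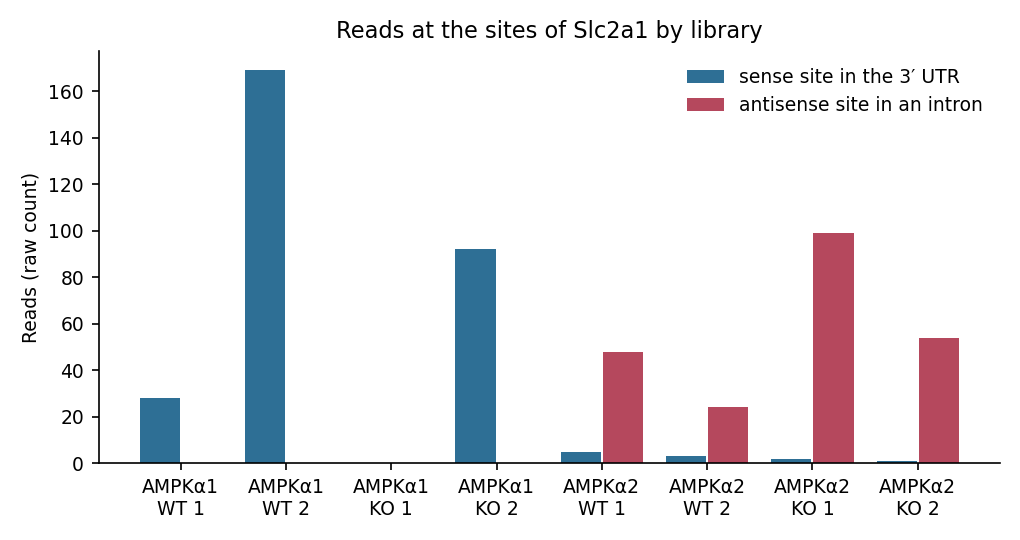
Raw reads at the sense site (blue) and the antisense site (red) of Slc2a1 in each of the 8 libraries. Sense reads reach 169 in an AMPKα1 WT library and 5 at most in AMPKα2 libraries, and antisense reads appear only in AMPKα2 libraries, from 24 to 99.

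With both sites summed, Slc2a1 had 64.3 and 21.7 CPM in the AMPKα2 KO mice against 15.6 and 12.8 CPM in WT. This log2 fold change of 1.56 ± 0.50 was the largest of the set in AMPKα2 mice and did not pass (edgeR unadjusted p = 0.0154, adjusted p = 0.418). It rested on KO 1: without that library it was 0.61 (adjusted p = 0.746), and without KO 2 it was 2.16 and passed (adjusted p = 0.0560). It also passed with no filter on low counts (adjusted p = 0.000556, at a log2 fold change of 1.55). On the sense strand alone, the 11 reads of the AMPKα2 libraries were too few to test. In AMPKα1 mice the 0 and 92 reads of the KO pair spread more widely than the difference between genotypes, and the log2 fold change of -1.34 ± 1.87 had an adjusted p of 0.996. This value depended on single libraries: it was -0.35 without KO 1, -0.23 without WT 2, -1.94 without WT 1 and -3.24 with the replicate number as a block. Without KO 2 the KO library left has 0 reads, and the fitted -9.57 is then no measure of size (adjusted p = 0.366).

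At single sites, 70 of the 93 APSs had enough reads to test in AMPKα1 mice and 42 in AMPKα2 mice. None passed, beside 0.00454% of 44024 APSs in AMPKα1 and 0.056% of 23218 in AMPKα2 mice (edgeR), and DESeq2 passed none of 79 and 83. At an unadjusted p under 0.05 stood 1 of the 70 APSs in AMPKα1 mice (3.07% of all APSs tested) and 6 of the 42 in AMPKα2 mice (7.6%). The AMPKα1 site is an intron site of Pik3r1 (chr13, position 101737390) with 121 and 242 reads in KO against 19 and 7 in WT, a log2 fold change of 2.89 ± 1.12 (edgeR adjusted p = 0.543). Without WT 1 it was 4.55 and without WT 2 it was 2.13. Among the AMPKα2 sites outside Txnip and Slc2a1 were a 3′ UTR site of Insr (chr8, position 3153054) with 29 and 23 reads in KO against 15 and 13 in WT, and an intron site of Pik3r1 (position 101739338) with 2 and 1 reads in KO against 13 and 5 in WT.

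Use of the sites within a gene did not pass a test either. For the 8 genes with a tested choice of sites, 0 passed edgeR's test of relative site use in both models, which 0.0262% of 7644 genes passed in AMPKα1 and 0.26% of 3843 in AMPKα2 mice. In AMPKα1 mice 10.8% of the 7644 genes had an unadjusted p under 0.05 in this test. Rab10 in these mice had the lowest unadjusted p of the set, 0.0449 (adjusted p = 0.408). Its last site, 1 base before the annotated end, was read 8 and 1 times in the AMPKα1 KO pair against 39 and 19 times in WT, and the main site 1152 and 1078 times against 592 and 1560 times.

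That main site of Rab10 (chr12, position 3247724) stands 296 bases before the gene end and held 84.2% to 88.3% of the gene's reads in AMPKα1 libraries and 33.1% to 50.9% in AMPKα2 libraries. In AMPKα2 libraries the last site was read 122 and 152 times in KO against 132 and 118 times in WT, and the main site 107 and 295 times against 298 and 198 times. In AMPKα2 KO 1 the last site had more reads than the main one, and neither site has AATAAA or ATTAAA in its 30 bases.

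**Figure D4:**
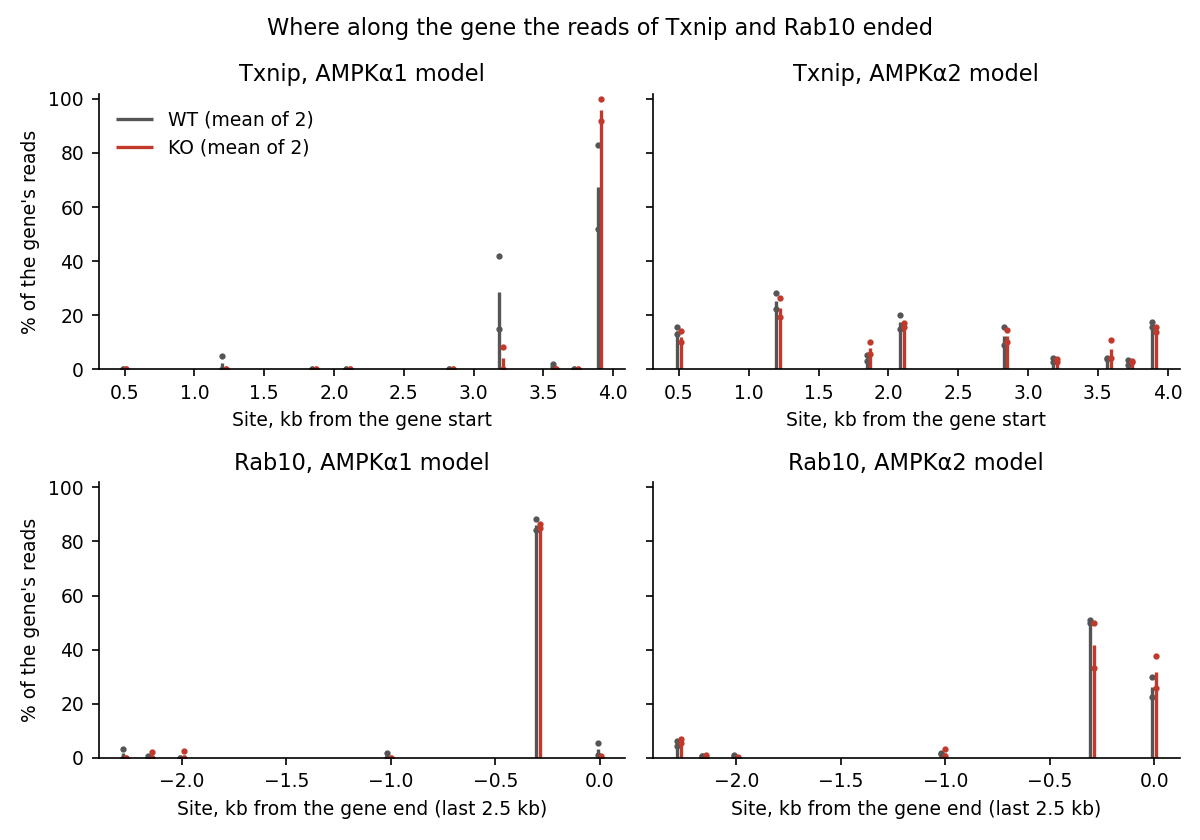
Share of the reads of Txnip (top) and Rab10 (bottom) at each sense site in each model (lines, mean of 2 libraries; dots, single libraries; grey, WT; red, KO), placed by distance from the gene start for Txnip and from the gene end for Rab10, whose last 2.5 kb are shown. AMPKα1 reads of Txnip stand mostly at the last site (52% to 100%), and AMPKα2 reads spread over 9 sites with 13.8% to 17.4% at the last one.

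In other genes the main site was chosen by its reads over all 8 libraries, of which each AMPKα1 library gave 1580 to 3610 and each AMPKα2 library 730 to 1461 for the set. A higher share in AMPKα1 libraries is therefore partly built into the choice, for Rab10 and Txnip as well, and the shares are a description. The main site of Akt2, at an annotated protein-coding transcript end and 28 bases after the start of AATAAA, held 76.0% to 82.7% of the gene's reads in AMPKα1 libraries and 27.8% to 50% in AMPKα2 libraries. In Pik3r1 the main site, 25 bases before an annotated transcript end, held 29.1% to 40% and 4.76% to 13.8%, and 456 of its 471 reads came from AMPKα1 libraries. The most read Pik3r1 site in AMPKα2 libraries, at position 101681074, held 39.5% of the gene's reads there and 10.01% in AMPKα1 libraries. The shares of the main site overlapped between the models for the 4 other genes with a choice of sites. Irs1 had 59.4% to 75.6% of reads at its last site in AMPKα1 and 56.5% to 85.7% in AMPKα2 libraries. The main site of Insr held 21.8% to 68.4% and 11.8% to 26.6%, that of Tbc1d1 8.99% to 33.5% and 2.99% to 14.9%, and that of Tbc1d4 3.67% to 34.2% and 20% to 43.4%.

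Of the 93 sites, 52 lay in introns, 29 in 3′ UTRs and 8 in coding exons, 3 were antisense, and 1, the last site of Tbc1d4, lay 1 base past the annotated gene end. Sites within 30 bases of an annotated transcript end numbered 14 and took 25.3% to 29.1% of the set's reads in AMPKα1 libraries and 25.8% to 28.5% in AMPKα2 libraries. Coding exon sites took 0% to 0.316% of the set's reads in AMPKα1 libraries and 12.3% to 22.7% in AMPKα2 libraries. Intron sites took 21.7% to 36.3% and 10.97% to 13.3%. Antisense sites took 0.1999% to 1.08% and 2.61% to 13.7%, and 3′ UTR sites 62.7% to 76.5% and 58.6% to 66.6%. The libraries of both models did not overlap for coding exon, intron and antisense sites, and they did for 3′ UTR sites. The models differ in more than genotype, so these shares describe the libraries and were not tested.

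**Figure D5:**
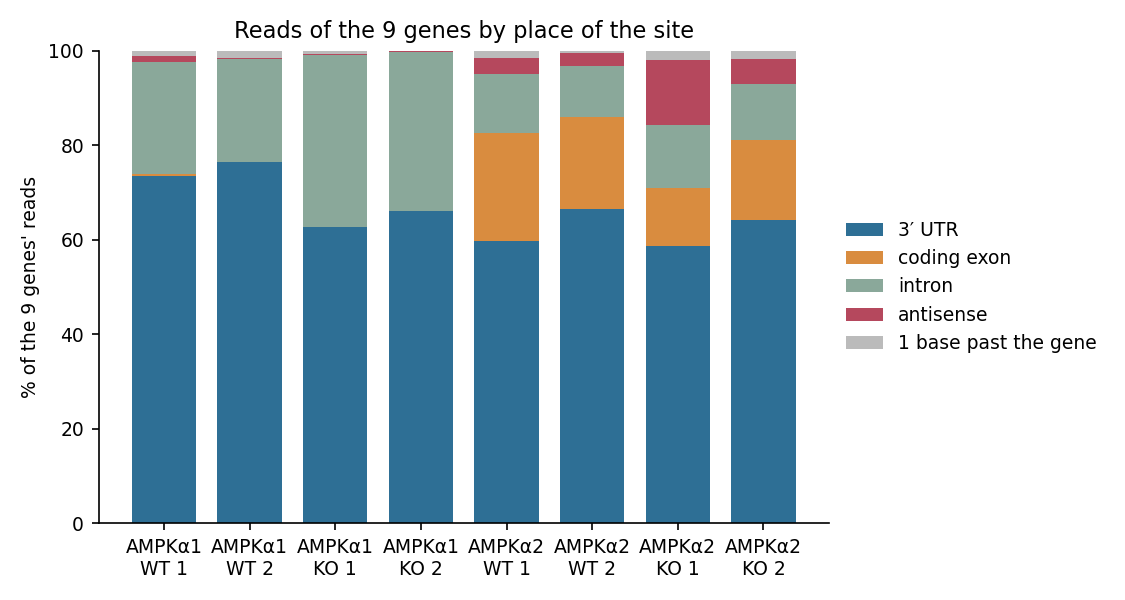
Share of the reads of the 9 genes by place of the site in each of the 8 libraries (stacked bars, each summing to 100%). The coding exon part is almost missing in the 4 AMPKα1 bars (0.316% at most) and takes 12.3% to 22.7% of the 4 AMPKα2 bars, and the intron part is larger in each AMPKα1 bar.

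Over all genes matched to the annotation, coding exon sites took 3.20% to 4.52% of reads in AMPKα1 and 8.85% to 12.7% in AMPKα2 libraries, and intron sites 6.804% to 12.7% and 16.9% to 20.6%. Antisense sites of all genes took 1.26% to 2.06% and 16.3% to 25.9%, and 3′ UTR sites 59.2% to 62.2% and 21.2% to 29.3%. Over all genes, too, the coding exon and antisense ranges were thus higher in AMPKα2 libraries, and the 3′ UTR ranges, which overlapped in the set, were apart. For introns the ranges of the set were thus higher in AMPKα1 and those of all genes higher in AMPKα2 libraries, and neither contrast between the set and all genes was tested. The coding exon reads came from 4 sites of Txnip, 3 of Rab10 and 1 of Tbc1d1. Without Rab10 and Txnip the intron shares were 40.4% to 53.7% in AMPKα1 and 21.8% to 29.0% in AMPKα2 libraries, and the coding exon share in AMPKα2 libraries was 0.899% to 2.47%.

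Several sites of the set were read in 1 mouse of a pair only. In the AMPKα1 KO pair 24 sites had 50 or more reads in 1 mouse, and 5 of them (20.8%, beside 30.4% over all sites) had none in its partner. In AMPKα1 WT this was 2 of 13 sites (15.4%, beside 5.09%), and in AMPKα2 KO and WT 0 of 4 and 0 of 6 (0.293% and 0.318% over all sites). An example is the intron site of Tbc1d4 at chr14, position 101467347, with 106 and 0 reads in AMPKα1 KO and 16 and 0 in WT. All 42 sites of the set with at least 16 reads in AMPKα2 mice were read in all 4 libraries of that model, against 21 of 70 (30%) in AMPKα1 mice. The shares of sites read in all 4 libraries were 95.03% and 32.2% over all sites.

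The partners of these genes were read from 4 further lists of 66 genes. None passed in either model by edgeR's test or DESeq2. An unadjusted edgeR p under 0.05 was reached by 3 of 60 tested in AMPKα1 mice (4.23% of all genes) and by 3 of 55 in AMPKα2 mice (8.44%). Of 20 insulin signalling partners, 19 were tested in AMPKα1 mice (11 with a positive and 8 with a negative log2 fold change, median 0.07) and 18 in AMPKα2 mice (5 and 13, median -0.12). The most read were Gsk3b, the glycogen synthase kinase that AKT inhibits, and Ptpn1, the phosphatase that switches the insulin receptor off. Ptpn1 had 647 and 862 reads in AMPKα1 KO against 153 and 273 in WT (log2 fold change 1.38 ± 0.42, unadjusted p = 0.0152, adjusted p = 0.763), and 14 and 37 in AMPKα2 KO against 64 and 35 in WT (-0.56 ± 0.36). Gsk3b had log2 fold changes of 0.07 ± 0.78 and 0.00 ± 0.26.

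Of 20 genes of GLUT4 vesicle traffic, all were tested in both models, with 11 positive and 9 negative in AMPKα1 mice (median 0.06) and 8 and 12 in AMPKα2 mice (median -0.10). The 2 most read were Ywhaz, a 14-3-3 protein that binds phosphorylated TBC1D4, at 0.91 ± 0.38 and -0.20 ± 0.28, and the vesicle GTPase gene Rab14, at 0.02 ± 0.39 and -0.08 ± 0.29. Neither gene passed the test in either model.

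Other glucose transporters, arrestin-domain proteins and hexokinases gave 8 and 6 genes tested of 13, with 5 positive and 3 negative log2 fold changes in AMPKα1 mice and 1 and 5 in AMPKα2 mice (median -0.36). The AMPKα1 median of 1.83 is carried by genes read almost in 1 library alone: Slc2a3, Slc2a9 and Arrdc3 had 26, 20 and 20 reads in KO 1 and 0 in the other 3 libraries, and Slc2a13 had 22 in KO 2 and 2 in WT 1. It is therefore no measure of the list. Hexokinase II (Hk2), which traps glucose in the fibre, had 127 and 176 reads in the AMPKα2 KO mice against 187 and 138 in WT (log2 fold change 0.32 ± 0.25), and 25 and 67 against 18 and 5 in AMPKα1 mice. Slc2a12 had 62 and 11 reads in AMPKα1 KO against 28 and 42 in WT, and 4 or fewer in each AMPKα2 library.

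The list of 13 transcription factors and cofactors of Slc2a4 or Txnip includes a pseudogene, Slc2a4rg-ps. In AMPKα1 mice 11 of 13 tested had positive log2 fold changes (median 0.59, beside -0.03 over all genes). In AMPKα2 mice 10 of 11 tested were positive (median 0.22, beside -0.01), and none passed the adjusted test in either model. The share of positive values over all genes was not counted. The AMPKα1 count includes genes absent from a library of each genotype. Mlx had 71 and 0 reads in AMPKα1 KO against 0 and 10 in WT, and Slc2a4rg-ps had 0 and 58 against 10 and 0. Mef2c, which binds the Slc2a4 promoter, had log2 fold changes of -0.24 ± 0.38 and 0.00 ± 0.24, and Mef2d 0.38 ± 0.49 and 0.06 ± 0.26. In AMPKα2 mice the lowest unadjusted p of the list was that of Ppargc1a (PGC-1α, a coactivator of oxidative genes), with 89 and 93 reads in KO against 86 and 54 in WT (log2 fold change 0.87 ± 0.30, unadjusted p = 0.0153, adjusted p = 0.418); it is named after its value was seen.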

How the data were processed

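Total RNA of gastrocnemius was profiled by WTTS-seq, which sequences 3′ ends, on an Ion PGM. The authors quality-filtered reads (FASTX Toolkit), removed leading Ts, kept trimmed reads of 16 or more bases, aligned them to the mouse genome with TMAP (GRCm38.p5 per the labels), merged ends within 24 nucleotides into APSs and linked APSs to genes by Cuffcompare. The deposited values are raw counts of reads per APS, not normalized, and every APS has 16 or more reads summed over all 8 libraries. Reads without a gene symbol (9.33%) stayed out of gene tests. They were 1.88% to 2.85% of the reads in AMPKα1 libraries and 15.3% to 17.9% in AMPKα2 libraries.

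APS counts were summed per gene. For each model, KO was tested against WT in edgeR 4.0.16 (R 4.3.3, limma 3.58.1) with TMM scaling, a robust quasi-likelihood test, a minimum of 16 reads in the 4 libraries together and a Benjamini-Hochberg adjusted p under 0.1. Standard errors are approximate, computed as the log2 fold change over the root of F. The interaction of genotype and model was fitted over 8 libraries. Sites were placed on GENCODE M21. The count code was tested on simulated data. Alternatives were DESeq2 1.42.0, other scalings and filters, sense sites only, a replicate block, 1 fit over 8 libraries and leaving out each library. P-values measure the spread between these mice only.

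Named were the 10 genes, their APS with most reads, every APS with 10% or more of a gene's reads, the 2 most read genes of each list and any gene past the test. The rule to name genes most like Slc2a4 could not be applied. Genes and lists were chosen with earlier results of these data known. Depth limits precision: 3 reads, the smallest count taken as shown, equal 0.845 to 1.30 CPM by library totals, for counting error only.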

Additional observations from a re-analysis of the deposited data

How the results depend on the processing

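In AMPKα1 mice genes passing went from 0 with edgeR to 115 with DESeq2 and 83 with 1 fit over 8 libraries. Sites went from 2 to 218 with DESeq2, and to 0 to 170 when a library was left out. In AMPKα2 mice genes went from 51 to 160 with library totals only (added after seeing the data), to 376 without a filter, to 4 with 1 fit over 8 libraries and to 26 to 89 without 1 library. Sites went from 13 to 96 with DESeq2 and to 0 to 76 without 1 library. Calls of site use went from 2 to 0 to 2 (AMPKα1) and from 10 to 8 to 88 (AMPKα2) without 1 library. Interaction calls went from 9 to 172 with DESeq2 and to 0 to 542 without 1 library.

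KO and WT mice share replicate numbers only: deviations of same-numbered mice had r = 0.034 (AMPKα1) and 0.0041 (AMPKα2) over 15349 genes. With the replicate block AMPKα2 calls went to 83 genes, 520 sites and 19 genes by site use, AMPKα1 calls of site use to 0 and interaction calls to 0. No gene of the set passed under the block.

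Of 445 repeats of gene and site values of the set, 412 kept sign and side of the threshold, 31 reversed sign and 2, both of Slc2a1 in AMPKα2 mice, passed. No reversed value had passed. Under the block, Tbc1d4 in AMPKα1 mice was -0.0948, Tbc1d1 site 64183624 in AMPKα1 mice -0.31 and Pik3r1 site 101681074 in AMPKα2 mice -0.0346. Tbc1d1 site 64351484 was 0.12 with DESeq2 in AMPKα1 mice, and Insr -0.0445 with library totals in AMPKα2 mice. Leaving out each library turned the sign at least once, with these lowest and highest values, for the genes Tbc1d4 (-0.80 to 0.58) in AMPKα1 and Irs1 (-0.72 to 0.0617), Insr (-0.14 to 0.43), Pik3r1 (-0.16 to 0.00296) in AMPKα2 mice, for the AMPKα1 sites Tbc1d1 site 64183624 (-1.45 to 0.73), Tbc1d1 site 64351484 (-0.81 to 0.63), Insr site 3150922 (-0.96 to 9.15), Insr site 3152278 (-1.02 to 0.90), Pik3r1 site 101681074 (-8.19 to 0.52), Pik3r1 site 101739338 (-0.31 to 0.90), Tbc1d4 site 101462976 (-0.0668 to 3.19), Tbc1d4 site 101467123 (-5.22 to 0.33), Tbc1d4 site 101467347 (-6.82 to 8.69), Tbc1d4 site 101553652 (-0.24 to 8.09), and for the AMPKα2 sites Tbc1d1 site 64183624 (-0.57, the single repeat with enough reads), Rab10 site 3247724 (-0.58 to 0.28), Pik3r1 site 101681074 (-0.43 to 0.34), Pik3r1 site 101737390 (-0.25 to 0.69). The interaction of Slc2a1 passed without AMPKα1 KO 2 (adjusted p = 0.0335), where the KO library left has 0 reads. Without Rab10 and Txnip the difference between models in read shares (AMPKα2 minus AMPKα1, percentage points) moved from -7.42 to -0.99 in 3′ UTRs, from 17.7 to 1.83 in coding exons and from 5.79 to 16.4 antisense. The causes of these shifts were not tested. Depth limits most sites in AMPKα2 mice, where 51 of 93 had fewer than 16 reads.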
